A study of Mus musculus with 8 samples.

Results

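The genes described here encode the machinery that brings proteins made in the cytosol into mitochondria. They were chosen by name from the GENCODE M21 annotation: protein-coding genes whose symbol starts with Timm or Tomm, together with Samm50, Pmpca, Pmpcb, Grpel1, Grpel2, Pam16, Dnajc19, Chchd4, Gfer and Mtx1. The rule gave 36 genes among the 141239 features of the deposited count tables, and it uses no measured values. All 36 were in the tables, and 34 had enough reads to be tested. Tomm6 and Timm8a2 did not pass the filter on low counts.

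The RNA came from hearts of mice aged 2 weeks, all of mixed strain and all carrying the Lmna knockout (Lmna-/-), which removes the nuclear filament proteins lamin A and lamin C. The AAV9-LMNA group (labelled Lmna-/-:AAV9 Lmna WT) has 5 libraries, replicates 1 to 5, from knockout hearts in which wild-type LMNA was put back with adeno-associated virus of serotype 9, a vector that reaches heart muscle. The untreated group (labelled Lmna-/-) has 3 libraries, replicates 6 to 8, whose labels mention no vector. The sources used here do not give the promoter of the vector, its dose and route, or the sex and litter of the mice. Wild-type hearts and hearts given an empty vector were not analysed here, so an effect of LMNA and an effect of the virus cannot be told apart. The labels do not say that each library is a separate animal, so the p-values measure the spread between libraries only.

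Most mitochondrial proteins are encoded in the nucleus and are imported after translation. They enter through the TOM complex of the outer membrane. From there the SAM complex inserts barrel proteins into the outer membrane, small TIM chaperones and the disulfide relay handle proteins of the intermembrane space, TIM22 inserts carrier proteins into the inner membrane, and TIM23 with its motor pulls proteins with a presequence into the matrix, where a peptidase cuts the presequence off. Heart muscle is rich in mitochondria, and inherited loss of the motor protein DNAJC19 causes a dilated cardiomyopathy with ataxia in people.

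The libraries held 21439956 to 26492443 reads counted on features. Values are given as CPM, counts scaled to the TMM library size, and differences as log2 fold changes of AAV9-LMNA over untreated from edgeR's quasi-likelihood test, with p-values adjusted (Benjamini-Hochberg) over 26717 features and called below 0.05. Lmna held 227 to 747 CPM in AAV9-LMNA libraries, against 32.3 to 68.7 CPM in untreated libraries. Reads outside every annotated feature made up 12.1 to 12.8% in AAV9-LMNA libraries and 16.8 to 24.7% in untreated libraries, with untreated 6 at 24.7%. The fold change of coding genes also ran with gene length, as described below, and neither pattern's part in the results was tested. The summed markers of ventricular muscle cells spanned 64600 to 78000 CPM in AAV9-LMNA libraries, against 52900 to 78500 CPM in untreated libraries, and 3 of 10 markers were called higher. Atrial markers spanned 59.1 to 177 CPM in AAV9-LMNA libraries, against 63.1 to 977 CPM in untreated libraries, with 3 of 4 tested markers lower. Fibroblast, endothelial and macrophage markers spanned 2200 to 2930, 1190 to 1590 and 244 to 261 CPM in AAV9-LMNA libraries, against 1130 to 3250, 825 to 1340 and 89.9 to 274 CPM in untreated libraries, with 0 of 6, 2 of 5 and 0 of 5 called higher and none called lower by edgeR. In bulk RNA, fewer cells of a type and less RNA per cell cannot be told apart.

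Of the 34 import genes tested, 17 were called higher in AAV9-LMNA hearts and 0 lower, by modest amounts, with called genes in TOM, the small TIM chaperones, TIM22, TIM23, the motor and the peptidase, and Mtx1 beside SAM. The calls fell to 6 higher with Ensembl features alone and to 2 when those features were also corrected for length and GC, both described below. The median log2 fold change was 0.41, and 31 of the 34 stood above 0, beside 9658 of 13785 protein-coding genes. Across all features 10.6% were called higher and 15% lower, with a median of -0.03, and across 13785 protein-coding genes 18.4% were called higher and 6.07% lower, with a median of 0.21. The 17 were the peptidase genes Pmpca and Pmpcb, the TIM23 genes Timm17a, Timm21 and Timm50, the motor genes Timm44 and Grpel1, the intermembrane space genes Timm8b, Timm10 and Timm13, Timm22, Mtx1, Timmdc1, and the TOM genes Tomm7, Tomm40, Tomm40l and Tomm70a. At an unadjusted edgeR p under 0.05 the 1 gene on the lower side was Pam16. DESeq2 called 21 import genes higher and 0 lower, and limma-voom 18 and 0.

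**Figure D1:**
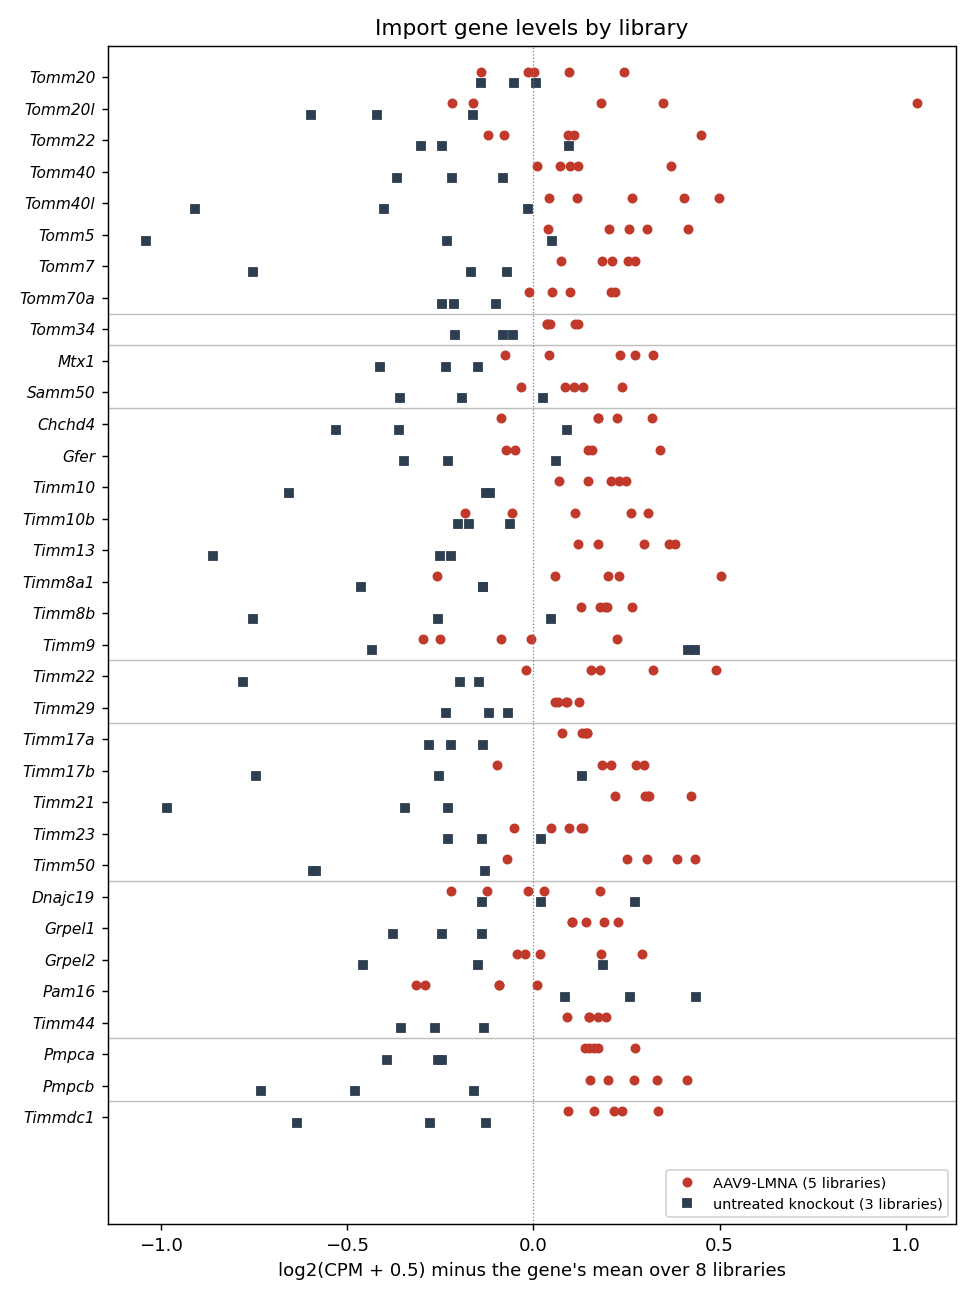
Each row is 1 of the 34 tested import genes, grouped by role with grey lines, and each point is 1 library: its log2(CPM + 0.5) minus the mean of that gene over the 8 libraries. Red circles are the 5 AAV9-LMNA libraries and dark squares the 3 untreated libraries. For most genes the circles lie to the right of the squares, and Pam16 has them the other way round.

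The separation was also seen library by library. All 5 AAV9-LMNA libraries lay above all 3 untreated libraries for 19 of the 34 genes, below them for 1 gene (Pam16), and the ranges overlapped for 14. The corresponding shares were 13.8% above and 16% below across all features, and 23.1% above and 6.61% below across protein-coding genes. Summed over the 34 genes, import transcripts made up 1720, 1796, 1862, 1784 and 1850 CPM in AAV9-LMNA libraries 1 to 5, against 1266, 1413 and 1353 CPM in untreated libraries 6 to 8. The means were 1802 ± 57.2 CPM (SD, n = 5) in AAV9-LMNA and 1344 ± 73.7 CPM (SD, n = 3) in untreated libraries, and the groups did not overlap. Scaled to the Ensembl counts of each library instead, without TMM, the means lay closer, at 1799 ± 82.3 and 1435 ± 94.9. Those values ran from 1670 to 1871 in AAV9-LMNA and from 1340 to 1530 in untreated libraries. For single genes, overlap was read only from CPM scaled over all features. Leaving out 1 library at a time gave between 9 and 20 import genes called higher, the fewest without AAV9-LMNA 3 or 5 (9 each) or AAV9-LMNA 2 (10) and the most without untreated 7, where 1 gene (Timm9) was also lower. Called in all 8 of these fits were 9 genes: Pmpca, Pmpcb, Timm13, Timm17a, Timm21, Timm44, Timm50, Grpel1 and Timmdc1. Without untreated 6 and 8 together 9 were higher, 8 of the 17 and Samm50, while 3.81% of all features and 7.69% of protein-coding genes were. The fit without untreated 6 and 8 keeps only untreated 7 in its group, so its spread comes from the AAV9-LMNA libraries alone. Its counts and calls therefore cannot show robustness, and its values for single genes below are effect sizes only. The log2 fold change of Lmna was 2.56 in it, beside 3.03 in the fit of all features. Untreated 6, the library with the most reads outside features, was the lowest of the 8 for 17 genes. AAV9-LMNA 5 was the highest for 16.

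The number of import genes called was lowest in the 2 fits restricted to Ensembl features, without and with a length and GC correction. RLE scaling over all features kept all 17 calls. When the Ensembl genes were scaled and tested without the features of NONCODE, a catalogue of noncoding transcripts, the median over protein-coding genes was 0.02 in place of 0.21, and 6 import genes were higher (Pmpca, Pmpcb, Timm13, Timm21, Timm50 and Timmdc1) and 1 lower (Pam16), with an import median of 0.22. In that fit 4.33% of all features were higher and 8.57% lower, and 4.49% and 8.73% of protein-coding genes. The same Ensembl features were then corrected in each library for gene length and GC content. With that correction 2 import genes were higher (Pmpcb and Timm21) and 1 lower (Pam16). The import median was 0.13 beside -0.001 over coding genes. In this fit 2.67% of all features were higher and 5.76% lower, and 2.87% and 5.48% of protein-coding genes. Of the 17 calls, 6 remained with Ensembl features alone and 2 with the correction added. In the corrected fit 24 of 34 import genes stood above 0, beside 6881 of 13785 protein-coding genes.

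**Figure D2:**
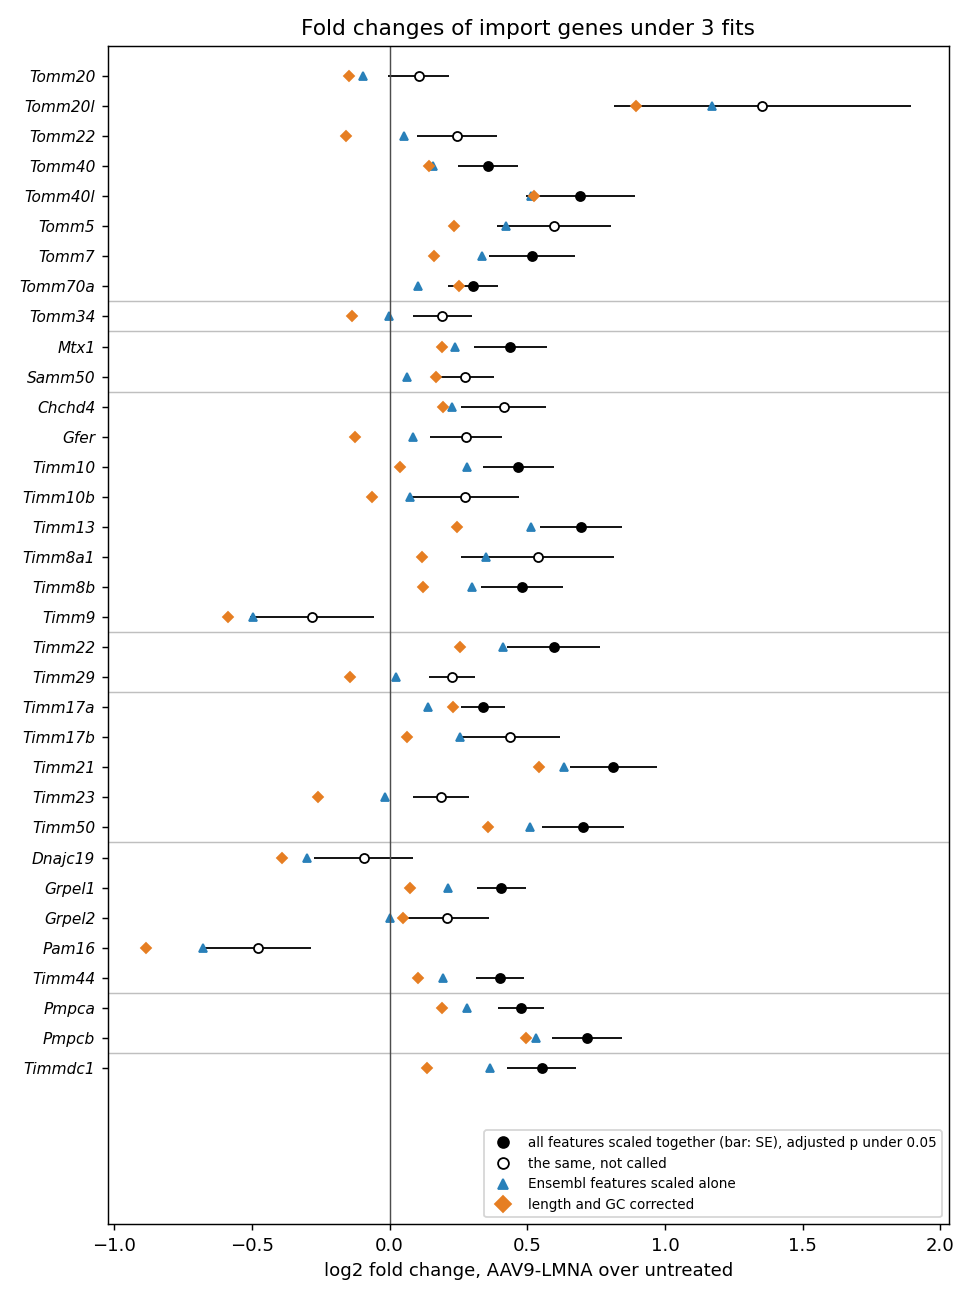
Log2 fold change of AAV9-LMNA over untreated for each tested import gene under 3 fits. Black circles are the fit of all features with a bar of 1 standard error, filled where called. Blue triangles are Ensembl features scaled alone, and orange diamonds are Ensembl features with length and GC corrected. The triangles and diamonds lie left of the circles for all genes, and Pmpcb and Timm21 keep values of 0.49 and 0.54 after the correction.

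Short coding genes had larger fold changes than long ones in this comparison, and 14 of the 34 import genes lie in the shortest of 5 equal classes of coding genes by exon length. Among 11600 protein-coding genes with a mean log2 CPM above 1, the log2 fold change and the exon length had a Spearman correlation of -0.44, and among the 34 import genes it was -0.29 (across genes, which are not independent replicates and share the 8 libraries). In the shortest class, up to 2719 bases of exon, 6 of the 14 import genes were called higher, beside 35.0% of its coding genes above that mean level. No such cut on level was made for the import genes, which include Tomm20l and Timm8a1 with few reads. The next classes had 5 of 9 import genes beside 28.5%, 4 of 7 beside 21.7%, and 1 of 3 beside 14.5%. The longest class held Tomm70a alone, called higher beside 6.38%. Within the shortest class the import median was 0.50 beside 0.41 for all its genes, in the next 0.40 beside 0.32, and in the middle class 0.41 beside 0.23.

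**Figure D3:**
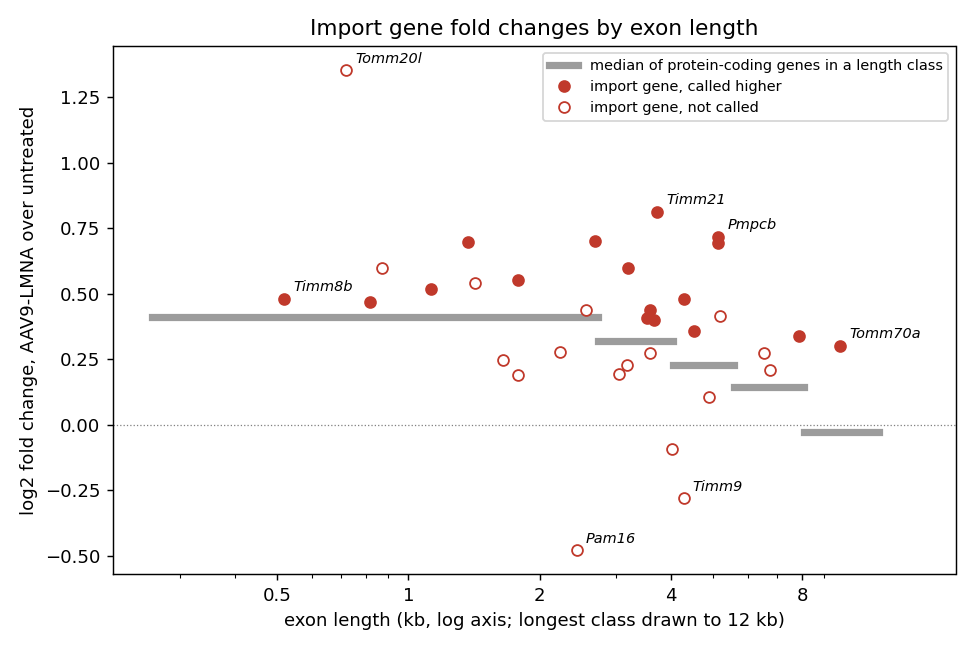
Log2 fold change of AAV9-LMNA over untreated against exon length (kb, log axis) for the 34 tested import genes, filled where called higher. Grey bars mark the median of protein-coding genes with a mean log2 CPM above 1 in each of 5 length classes, stepping from 0.41 in the shortest class to -0.03 in the longest. Pmpcb, Timm21 and Tomm70a lie above the bar of their class, and Timm9 and Pam16 below it.

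The start regions of import genes were searched for motifs, which the rule did not use. The motif CCGGAAG, the core bound by the GABP factors of the ETS family, which regulate many nuclear genes for mitochondrial proteins, was found on either strand in the windows of 14 of 32 import genes (43.8%), and in 12.9% of 17492 protein-coding genes. A window runs from 250 bases before to 50 bases after the start in RefSeq on GRCm38.p6, and 4 import genes (Grpel2, Timm21, Tomm40l and Tomm7) had none. Among genes called higher 8 of 14 held the motif, and among tested genes not called 5 of 16 did. The 32 genes had 34 windows with 26 matches, counting a Tomm34 site again where windows of that gene overlap. Of these matches 1 overlapped a match to another motif searched, and in Timm10, Timmdc1 and Tomm22 matches on both strands overlapped each other. The NRF1 motif was in 12.5% of import windows and 7.17% of coding windows, the YY1 motif AAGATGGCG in 6.25% and 2.14%, the ERR core AAGGTCA in 9.38% and 4.73%, the GC box GGGCGG in 59.4% and 49.2%, and the E-box CACGTG in 15.6% and 8.91%. The CRE TGACGTCA and the ATF4 motif TGATGCAA were in 0 of the 32, and in 2.54% and 1.01% of coding windows. A match describes letters in a window and is not evidence of binding.

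The windows of 5 of the 8 genes called higher that hold the ETS core are shown, as those with a match close to the start and at most 30 annotated UTR bases in the window. Mtx1 and Pmpca also hold a match there, but their windows pass that UTR limit or lie wholly in annotated exon and are not printed. In Grpel1 the match lies farther off. Each is shown as the 150 bases before the RefSeq start on GRCm38.p6, 5′ to 3′ on the gene's strand. Capitals mark CCGGAAG or its reverse complement CTTCCGG, and in Timm8b also the ERR core.
Pmpcb, chr5:21737010-21737159, plus strand: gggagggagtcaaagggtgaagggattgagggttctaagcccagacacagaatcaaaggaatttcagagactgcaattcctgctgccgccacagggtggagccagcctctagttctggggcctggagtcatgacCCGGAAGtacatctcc
Timm10, chr2:84826871-84827020, plus strand: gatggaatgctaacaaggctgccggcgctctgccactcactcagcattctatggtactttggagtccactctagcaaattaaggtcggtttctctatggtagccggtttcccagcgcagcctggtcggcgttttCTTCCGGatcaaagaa
Timm8b, chr9:50603751-50603900, plus strand: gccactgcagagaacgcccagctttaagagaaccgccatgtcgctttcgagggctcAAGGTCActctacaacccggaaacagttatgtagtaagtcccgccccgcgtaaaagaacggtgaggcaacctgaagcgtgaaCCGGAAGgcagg
Timmdc1, chr16:38522664-38522813, minus strand: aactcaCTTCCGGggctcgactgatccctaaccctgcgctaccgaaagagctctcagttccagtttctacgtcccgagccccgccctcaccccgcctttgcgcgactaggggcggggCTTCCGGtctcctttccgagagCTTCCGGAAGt
Tomm70a, chr16:57121564-57121713, plus strand: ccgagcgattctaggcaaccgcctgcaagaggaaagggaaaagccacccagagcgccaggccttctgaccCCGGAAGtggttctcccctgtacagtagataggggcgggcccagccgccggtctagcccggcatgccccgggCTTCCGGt
In Pmpcb and Timm10 the match starts 16 bases before the RefSeq start, in Timm8b 12 bases before it, and Timmdc1 and Tomm70a hold 4 and 2 matches. In GENCODE M21 the genes Pmpcb, Timm10 and Tomm70a begin inside the printed windows, at 21737141, 84826997 and 57121703. The Pmpcb and Timm10 matches and the nearer Tomm70a match therefore lie inside the GENCODE genes.

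In the fit of all features the entry gate was called higher in its pore and in part of its small subunits. The TOM complex takes in nearly all imported proteins: Tomm20, Tomm22 and Tomm70a are its receptors, Tomm40 is the pore, Tomm40l its paralogue, and Tomm5, Tomm6 and Tomm7 are small subunits that stabilise it. Of the 8 TOM genes tested 4 were called higher and 0 lower, with a median log2 fold change of 0.44. Across protein-coding genes 18.4% were called higher, and across all features 10.6%. With Ensembl features alone, and with length and GC corrected, 0 of the 8 were called. Tomm40 was 0.16 and 0.14 in those fits (edgeR adjusted p = 0.386 and 0.462). Tomm40l (GRCm38 chromosome 1, 171216011 to 171222514, minus strand) held 17.1, 14.6, 18.9, 15.4 and 20.2 CPM in AAV9-LMNA libraries 1 to 5, against 7.30, 14 and 10.6 CPM in untreated libraries 6 to 8. The groups did not overlap, although AAV9-LMNA 2 and untreated 7 lay close together. edgeR put the difference at 0.69 on the log2 scale, with an SE of 0.20 (edgeR adjusted p = 0.028). Because 64.3% of its exon bases overlap Nr1i3 and reads were counted without strand, its count is uncertain.

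Tomm70a, the receptor for carrier proteins that arrive with cytosolic chaperones (chromosome 16, 57121703 to 57156705, plus strand), held 115, 135, 134, 124 and 120 CPM in AAV9-LMNA libraries, against 99.8, 108 and 97.6 CPM in untreated libraries. No untreated library reached the lowest AAV9-LMNA value. This was a log2 fold change of 0.30 (SE 0.09) (edgeR adjusted p = 0.0339). Tomm7 (chromosome 5, 23838944 to 23844161, minus strand) held 20.8, 21.1, 19.8, 18.3 and 20.2 CPM in AAV9-LMNA libraries, against 10.1, 16.5 and 15.4 CPM in untreated libraries. Untreated 6 lay far below the other untreated libraries, and no values overlapped between groups. AAV9-LMNA over untreated gave 0.52 on the log2 scale (SE 0.16) (edgeR adjusted p = 0.0339). Tomm40 averaged 73.9 ± 7.53 CPM (SD, n = 5) in AAV9-LMNA and 57.7 ± 5.74 CPM (SD, n = 3) in untreated libraries, and its log2 fold change was 0.36 (edgeR adjusted p = 0.0346).

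Each of these TOM calls was lost when 1 of several libraries was left out. The edgeR adjusted p rose to 0.0664 for Tomm40l (lost without untreated 6 or 8 or AAV9-LMNA 3 or 5), to 0.0877 for Tomm70a (lost without untreated 6 or 8 or AAV9-LMNA 2, 3, 4 or 5), to 0.0717 for Tomm7 (lost without untreated 6 or AAV9-LMNA 1, 2, 3 or 5) and to 0.0795 for Tomm40 (lost without untreated 6 or 7 or AAV9-LMNA 2, 3, 4 or 5). The other receptors were not called. Tomm22 had a log2 fold change of 0.25 and Tomm20 one of 0.11, and with length and GC corrected both were below 0, at -0.16 and -0.15. Tomm5 had 0.60 (edgeR adjusted p = 0.0559) and was called without untreated 7 (0.86). Tomm20l, the paralogue of Tomm20, was near the detection limit, at 0.42 to 1.68 CPM in AAV9-LMNA libraries and 0.21 to 0.45 CPM in untreated libraries, and its log2 fold change of 1.35 had an SE of 0.54 and was not called. Tomm6 had 1 read in the AAV9-LMNA group and 0 in the untreated group, while 84.2% of its exon bases overlap Gm21981, Tomm6os and Usp49, and reads that overlap more than 1 feature were set aside as ambiguous in the deposited tables. In the cytosol, Tomm34, a cofactor of the chaperones that keep precursors unfolded, held 17, 16, 16.9, 16 and 16.1 CPM in AAV9-LMNA libraries, against 13.4, 14.7 and 15 CPM in untreated libraries. The groups did not overlap, and with a log2 fold change of 0.19 it was not called (edgeR adjusted p = 0.195).

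Among outer membrane sorting genes the metaxin gene was called in the fit of all features and the core of SAM was not. The difference between these genes was not tested. Mtx1 (chromosome 3, 89209081 to 89227088, minus strand), which works beside SAM in the import of barrel proteins, held 15.9, 17.3, 19.8, 20.4 and 21.1 CPM in AAV9-LMNA libraries, against 15.1, 14.2 and 12.5 CPM in untreated libraries. The groups did not overlap, with AAV9-LMNA 1 just above untreated 6. The estimate on the log2 scale was 0.44, SE 0.13 (edgeR adjusted p = 0.0335), lost without untreated 8 or AAV9-LMNA 2, 3, 4 or 5 (up to 0.0998). With length and GC corrected Mtx1 was 0.19 and not called (edgeR adjusted p = 0.35). Of its exon bases 30.1% are shared with Gm43737 and Thbs3. Samm50, the barrel protein at the centre of SAM, held 163 to 197 CPM in AAV9-LMNA libraries and 130 to 170 CPM in untreated libraries, with a log2 fold change of 0.27 (edgeR adjusted p = 0.0769). Samm50 was called without untreated 6 (0.39, edgeR adjusted p = 0.0222) and by DESeq2 (0.30, DESeq2 adjusted p = 0.0496). With length and GC corrected Samm50 was 0.17 and not called (edgeR adjusted p = 0.418), close to the 0.19 of Mtx1.

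In the intermembrane space 3 chaperone genes were called, and neither gene of the disulfide relay was. Small TIM proteins carry hydrophobic precursors across this space, as complexes of Timm9 with Timm10 and of Timm8 proteins with Timm13. Of 8 genes tested 3 were called higher and 0 lower, with a median of 0.44, beside 18.4% of protein-coding genes and 10.6% of all features higher. Timm13 (chromosome 10, 80899450 to 80900969, minus strand) held 41.9, 43.5, 49.8, 47.5 and 50.3 CPM in AAV9-LMNA libraries, against 21, 32.3 and 33.0 CPM in untreated libraries. A wide gap lay between the groups. edgeR put the difference at 0.70 on the log2 scale, with an SE of 0.15 (edgeR adjusted p = 0.00966), called whichever library was left out, and 0.25 with length and GC corrected (edgeR adjusted p = 0.19). Timm10 (chromosome 2, 84826997 to 84830213, plus strand), whose promoter is shown above, held 42.8, 46.0, 44.7, 40.5 and 45.4 CPM in AAV9-LMNA libraries, against 24.3, 35.6 and 35.3 CPM in untreated libraries. Timm8b (chromosome 9, 50603910 to 50605320, plus strand), also shown above, held 63.8, 63.2, 61.0, 64.1 and 67.1 CPM in AAV9-LMNA libraries, against 32.9, 57.7 and 46.6 CPM in untreated libraries. For both genes the AAV9-LMNA libraries were tightly grouped and the untreated libraries spread out, with untreated 6 lowest. Their log2 fold changes were 0.47 with SE 0.13 for Timm10 and 0.48 with SE 0.15 for Timm8b (edgeR adjusted p = 0.0252 and 0.0375). With length and GC corrected they were 0.04 and 0.12 and not called (edgeR adjusted p = 0.808 and 0.417). The Timm10 call was lost without AAV9-LMNA 2, 3 or 5 (up to 0.057), and the Timm8b call without any library except untreated 7 (up to 0.0752).

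Timm9, the partner of Timm10, was not called. It held 5.68 to 8.36 CPM in AAV9-LMNA libraries, against 9.76, 5.12 and 9.62 CPM in untreated libraries 6 to 8, so that untreated 7 lay below all AAV9-LMNA libraries and both others above. This was a log2 fold change of -0.28 (SE 0.23) (edgeR adjusted p = 0.365). Without untreated 7 it was -0.51 and called lower (edgeR adjusted p = 0.0451), and without untreated 6 and 8 it was 0.41. Timm10b and Timm8a1, other small TIM genes, had 0.27 and 0.54 and were not called, and 43.1% of the Timm8a1 transcript matches a pseudogene copy at 95% identity or more. Timm8a2 had 12 reads in the AAV9-LMNA group and 2 in the untreated group. The disulfide relay genes Chchd4, which oxidises incoming proteins, and Gfer, which re-oxidises Chchd4, had 0.41 and 0.28 and were not called (edgeR adjusted p = 0.0668 and 0.135), and both were called without untreated 7 (0.64 and 0.42).

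The carrier translocase TIM22 was called in its channel gene. Timm22 (chromosome 11, 76406952 to 76416292, plus strand) held 21.2, 27.0, 24.4, 24.0 and 30.4 CPM in AAV9-LMNA libraries, against 12.3, 18.7 and 19.4 CPM in untreated libraries. The groups did not overlap. AAV9-LMNA over untreated gave 0.60 on the log2 scale (SE 0.17) (edgeR adjusted p = 0.0267), lost without untreated 6 or AAV9-LMNA 2, 3 or 5 (up to 0.0597). With length and GC corrected Timm22 was 0.26 and not called (edgeR adjusted p = 0.26). Timm29, which in mammals scaffolds the complex, held 74.2 to 77.7 CPM in AAV9-LMNA libraries, against 60.5 to 68.0 CPM in untreated libraries. Its libraries also did not overlap, but its log2 fold change of 0.23 was not called (edgeR adjusted p = 0.063), except without untreated 6 (0.28, edgeR adjusted p = 0.0482), and was -0.14 with length and GC corrected.

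The presequence translocase TIM23 held the steepest called rise of the 34 genes, in Timm21. Timm23 and Timm17a or Timm17b form the inner membrane channel, Timm50 is the receptor that takes presequences over from TOM, and Timm21 links the channel to TOM and to the respiratory chain. Of these 5 genes 3 were called higher and 0 lower, with a median of 0.44, beside 18.4% of protein-coding genes and 10.6% of all features higher. Timm21 (chromosome 18, 84946191 to 84951524, minus strand) held 35.0, 34.8, 35.1, 32.9 and 38.0 CPM in AAV9-LMNA libraries, against 14, 24.0 and 22.1 CPM in untreated libraries. Its AAV9-LMNA values were close to each other and all above the untreated ones. The estimate on the log2 scale was 0.81, SE 0.16, or 1.76-fold (edgeR adjusted p = 0.00664). It was 0.63 with Ensembl features scaled alone and 0.54 with length and GC corrected, and called in both (edgeR adjusted p = 0.0147 and 0.0212). Without untreated 6 and 8 it was 0.57.

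Timm50 (chromosome 7, 28305516 to 28312072, minus strand) held 32.9, 42.9, 46.9, 45.4 and 41.3 CPM in AAV9-LMNA libraries, against 22.9, 31.6 and 22.8 CPM in untreated libraries. AAV9-LMNA 1 and untreated 7 lay nearly level, and the others were well apart. edgeR put the difference at 0.70 on the log2 scale, with an SE of 0.15 (edgeR adjusted p = 0.00931), and 0.36 with length and GC corrected, where it was not called (edgeR adjusted p = 0.112). Leaving out untreated 6 and 8 gave 0.42. Timm17a (chromosome 1, 135295213 to 135313778, minus strand) held 89.0, 92.8, 93.3, 93.3 and 92.4 CPM in AAV9-LMNA libraries, against 72.3, 69.4 and 76.8 CPM in untreated libraries. Both groups were tight and clearly separate. Its log2 fold change of 0.34 had an SE of 0.08 (edgeR adjusted p = 0.0142), and was 0.42 without untreated 6 and 8. It was 0.14 with Ensembl features alone and 0.23 with length and GC corrected, and not called in either (edgeR adjusted p = 0.285 and 0.118). Timm17b had 0.44 and was not called (edgeR adjusted p = 0.096), except without untreated 7 (0.69). The channel gene Timm23 had 0.19 and was not called (edgeR adjusted p = 0.179), and since 95.6% of its transcript matches 5 other annotated genes, its count is uncertain.

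The import motor held 2 called genes and, in Pam16, the only import gene with all AAV9-LMNA values below all untreated values. It consists of the mitochondrial Hsp70 (Hspa9), its anchor Timm44, the nucleotide exchange factors Grpel1 and Grpel2, the J protein Dnajc19 that stimulates Hsp70, and Pam16, which holds the J protein in check at the channel. Of the 5 genes counted here 2 were called higher and 0 lower, with a median of 0.21. The shares called higher were 18.4% of protein-coding genes and 10.6% of all features. Timm44 (chromosome 8, 4259731 to 4275913, minus strand) held 118, 125, 123, 123 and 127 CPM in AAV9-LMNA libraries, against 101, 86.5 and 92.2 CPM in untreated libraries. Grpel1 (chromosome 5, 36464998 to 36474080, plus strand) held 112, 112, 119, 115 and 122 CPM in AAV9-LMNA libraries, against 80.1, 87.8 and 94.6 CPM in untreated libraries. Neither gene overlapped between groups. The log2 fold changes were 0.40 for Timm44 and 0.41 for Grpel1 with an SE of 0.09 each (edgeR adjusted p = 0.0096 and 0.0102), called whichever library was left out. Without untreated 6 and 8 they were 0.52 and 0.41. With length and GC corrected they were 0.11 and 0.07 and not called.

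Pam16 (chromosome 16, 4616464 to 4624988, minus strand) lay on the other side of the groups. It held 3.04, 3.30, 3.04, 2.53 and 2.58 CPM in AAV9-LMNA libraries, against 4.02, 4.61 and 3.50 CPM in untreated libraries. No values were shared between the groups. This was a log2 fold change of -0.48 (SE 0.20) and was not called in the fit of all features (edgeR adjusted p = 0.0889). It was -0.68 and called with Ensembl features scaled alone (edgeR adjusted p = 0.0367), and -0.88 and called with length and GC corrected (edgeR adjusted p = 0.019). The gene rests on 332 reads in the AAV9-LMNA group and 283 in the untreated group, and 18.7% of its exon bases overlap Glis2. Dnajc19, its partner, had -0.09 and Grpel2 0.21, and neither was called (edgeR adjusted p = 0.713 and 0.317). Dnajc19 was 0.05 without untreated 6.

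Both subunits of the processing peptidase were called higher. Pmpca and Pmpcb together form the enzyme that cuts presequences from proteins arriving in the matrix. Pmpcb (chromosome 5, 21737141 to 21757152, plus strand) held 231, 262, 277, 251 and 239 CPM in AAV9-LMNA libraries, against 125, 186 and 149 CPM in untreated libraries. The lowest AAV9-LMNA library stood clear of the highest untreated library. AAV9-LMNA over untreated gave 0.72 on the log2 scale (SE 0.13), or 1.64-fold (edgeR adjusted p = 0.00478). It was called as well with Ensembl features scaled alone (0.53, edgeR adjusted p = 0.0125) and with length and GC corrected (0.49, edgeR adjusted p = 0.0181). Without untreated 6 and 8 it was 0.45. Pmpca (chromosome 2, 26389339 to 26397122, plus strand) held 125, 123, 134, 124 and 122 CPM in AAV9-LMNA libraries, against 84.2, 93.4 and 92.6 CPM in untreated libraries. Both groups were tight and separate. Its log2 fold change of 0.48 had an SE of 0.08 (edgeR adjusted p = 0.00462), and was 0.19 and not called with length and GC corrected (edgeR adjusted p = 0.141). Inpp5e shares 20.4% of the exon bases of Pmpca.

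Timmdc1 carries a Timm name but works as an assembly factor of respiratory complex I. It lies on chromosome 16, 38498347 to 38522663, minus strand, and held 34.2, 32.9, 31.3, 34.7 and 37.1 CPM in AAV9-LMNA libraries, against 18.7, 26.8 and 24.1 CPM in untreated libraries. The groups did not overlap. The estimate on the log2 scale was 0.55, SE 0.13 (edgeR adjusted p = 0.0121), called whichever library was left out. It was 0.14 and not called with length and GC corrected (edgeR adjusted p = 0.369), and 0.36 without untreated 6 and 8.

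Levels between import genes were compared per kb of exon. Timm8b was highest in both groups, at 123 ± 4.21 CPM per kb (SD, n = 5) in AAV9-LMNA and 88.3 ± 24.0 CPM per kb (SD, n = 3) in untreated libraries. Timm10 followed with 53.8 ± 2.78 CPM per kb in AAV9-LMNA and 38.9 ± 7.86 CPM per kb in untreated libraries, and Pmpcb with 49.0 ± 3.51 CPM per kb in AAV9-LMNA and 29.8 ± 5.99 CPM per kb in untreated libraries. Timm10 stood above Pmpcb in every library, and the following genes formed a run with no clear steps. At the low end Pam16 had 1.19 ± 0.14 CPM per kb in AAV9-LMNA and 1.66 ± 0.23 CPM per kb in untreated libraries, and Tomm20l had 1.14 ± 0.71 CPM per kb in AAV9-LMNA and 0.44 ± 0.18 CPM per kb in untreated libraries. Components of 1 complex thus differed widely in counted level. Timm9 had 1.57 ± 0.25 CPM per kb in AAV9-LMNA and 1.91 ± 0.62 CPM per kb in untreated libraries, beside the higher level of its partner Timm10. Counted levels need not be transcript levels. Reads set aside as ambiguous made up 24 to 26.4% in AAV9-LMNA libraries and 21 to 24.9% in untreated libraries. The length used joins all exons of a gene, 4282 bases for Timm9, whose longest transcript has 2564 bases.

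**Figure D4:**
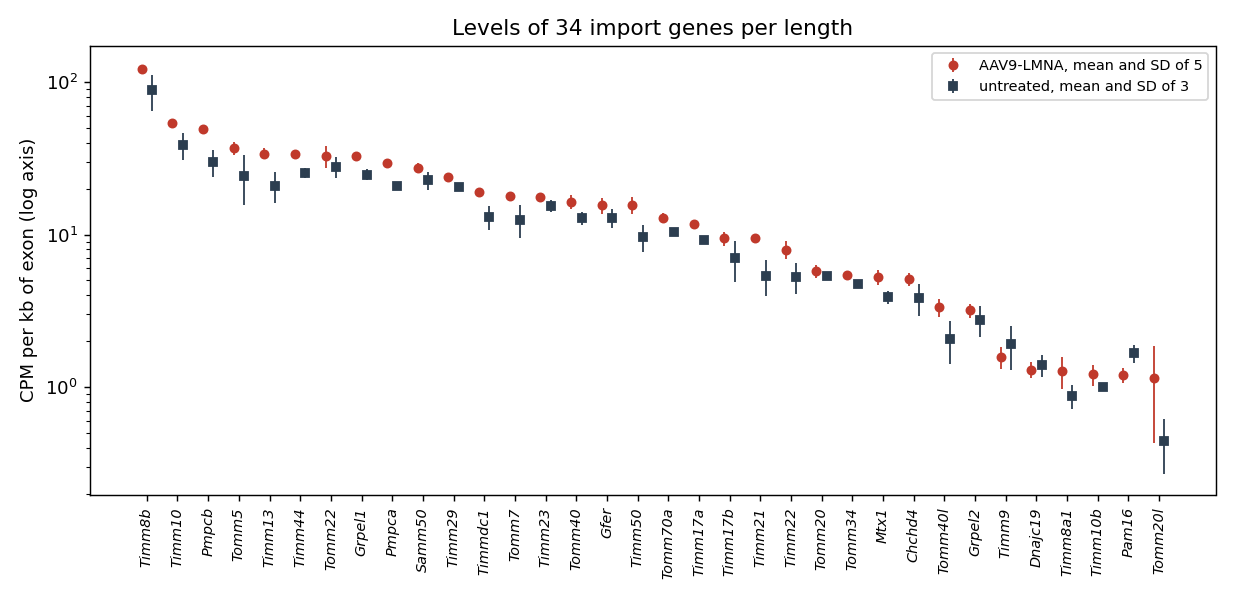
Mean counted level of the 34 tested import genes in CPM per kb of exon (log axis), ordered by the AAV9-LMNA mean. Red circles are the 5 AAV9-LMNA libraries and dark squares the 3 untreated libraries, with bars of 1 SD. Levels run from 123 CPM per kb for Timm8b to 1.14 CPM per kb for Tomm20l in AAV9-LMNA libraries, and the order is much the same in both groups.

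Ratios of partner genes within a library do not depend on how libraries are scaled, but they were not corrected for length or GC. For 8 pairs, chosen after the data were seen, log2 ratios were compared with an exact two-sided permutation test over the 56 splits of 8 libraries, which cannot give a p below 0.0179. None of the 8 passed after adjustment over the pairs, where the smallest adjusted p was 0.2. Timm50 stood at 1.14, 1.34, 1.43, 1.47 and 1.26 times the Timm23 count in AAV9-LMNA libraries, against 0.755, 1.25 and 0.843 times in untreated libraries, a log2 difference of 0.52 (exact permutation p = 0.0357). Because 95.6% of the Timm23 transcript matches 5 other annotated genes, this ratio is uncertain. Pmpcb stood at 1.85 to 2.13 times Pmpca in AAV9-LMNA libraries, against 1.48, 1.99 and 1.61 times in untreated libraries, a log2 difference of 0.26 (exact permutation p = 0.0536). Timm10 stood at 5.11 to 8.10 times Timm9 in AAV9-LMNA libraries, against 2.49, 6.95 and 3.67 times in untreated libraries, with untreated 7 inside the AAV9-LMNA range. A p that misses the threshold does not show that partners moved alike.

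**Figure D5:**
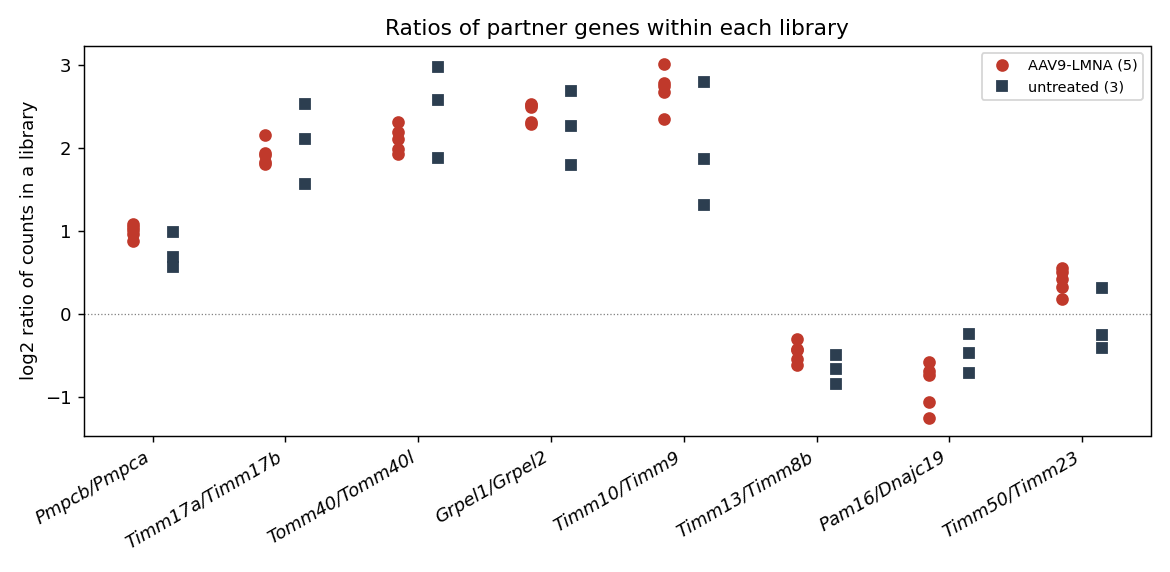
Log2 ratio of the counts of 2 partner genes within each library, for 8 pairs. Red circles are the 5 AAV9-LMNA libraries and dark squares the 3 untreated libraries. The untreated squares spread more widely than the circles in most pairs, and no pair passed the adjusted test.

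Genes that work next to the translocases were read from a second list of 71 symbols, of which 69 matched and 68 were tested. Of these, 36 were called higher and 0 lower, with a median log2 fold change of 0.36 (0 also at an unadjusted edgeR p under 0.05 on the lower side), beside 18.4% of protein-coding genes and 10.6% of all features called higher. With Ensembl features alone 13 were higher and 0 lower, beside 4.49% and 4.33% called higher, and with length and GC corrected 7 were higher and 2 lower, beside 2.87% and 2.67%. The 3 steepest called genes were Ndufs5, Bcs1l and Dnlz. Ndufs5, a complex I subunit that is folded in the intermembrane space, held 8.22, 9.85, 9.25, 10.3 and 10.1 CPM in AAV9-LMNA libraries, against 5.00, 0.64 and 3.22 CPM in untreated libraries. All AAV9-LMNA values were above the untreated ones, and untreated 7 was lowest. Its log2 fold change was 1.69 (edgeR adjusted p = 0.0288), lost without untreated 8 or AAV9-LMNA 2, 3, 4 or 5 (up to 0.0735), with Ensembl features alone (1.45, edgeR adjusted p = 0.0805) and with length and GC corrected (1.16, edgeR adjusted p = 0.198). The size of the change was poorly fixed, at 1.22 without untreated 7, 2.32 without untreated 6 and 3.90 without untreated 6 and 8. Because 46.9% of its transcript matches another gene, its count is uncertain.

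Bcs1l, which inserts the Rieske protein into complex III, held 18.9, 26.2, 28.9, 28.4 and 28.5 CPM in AAV9-LMNA libraries, against 8.28, 21.2 and 14.5 CPM in untreated libraries. The ranges overlapped through AAV9-LMNA 1 and untreated 7. Its log2 fold change was 0.84 (edgeR adjusted p = 0.0426), lost without untreated 6 or 8 or AAV9-LMNA 2, 3, 4 or 5 (up to 0.107). With length and GC corrected Bcs1l was 0.46 and not called (edgeR adjusted p = 0.2). Dnlz, a zinc finger protein that keeps mitochondrial Hsp70 soluble, held 9.58, 10.7, 11.3, 11.2 and 10.7 CPM in AAV9-LMNA libraries, against 4.76, 8.14 and 5.58 CPM in untreated libraries. The groups were apart, and the log2 fold change of 0.79 was called whichever library was left out (edgeR adjusted p = 0.0126). It was 0.47 and not called with length and GC corrected (edgeR adjusted p = 0.0783), and 0.41 without untreated 6 and 8.

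On the matrix side of the second list, all 5 matrix chaperone genes were called higher, with a median of 0.60, and so were all 3 partners of TIM23. Beside them 18.4% of protein-coding genes and 10.6% of all features were called higher. With length and GC corrected 1 of the 5 and 1 of the 3 were called, beside 2.87% of protein-coding genes and 2.67% of all features higher. Without untreated 6 and 8 the medians were 0.34 and 0.38. The following genes were named after their values were seen. Hspa9, the Hsp70 that drives the motor, averaged 688 ± 31.9 CPM (SD, n = 5) in AAV9-LMNA and 509 ± 34.6 CPM (SD, n = 3) in untreated libraries, a log2 fold change of 0.44 (edgeR adjusted p = 0.0075) that was 0.15 and not called with length and GC corrected (edgeR adjusted p = 0.312). Dnaja3, a J protein of the matrix, averaged 203 ± 10.4 CPM in AAV9-LMNA and 122 ± 21.4 CPM in untreated libraries, a log2 fold change of 0.74 (edgeR adjusted p = 0.00361) that was 0.45 and called with length and GC corrected (edgeR adjusted p = 0.0129). Trap1, Hspd1 and Hspe1, further folding chaperones, had 0.55, 0.64 and 0.60, and 0.15, 0.29 and 0.22 with that correction, where none of the 3 was called. Of the Hspd1 transcript 71.1% matches other genes, so its count is uncertain. The Hspd1 call was lost without untreated 8 or any 1 AAV9-LMNA library. Dnajc15, a J protein related to Dnajc19, had 0.60 and was 0.44 and called with length and GC corrected (edgeR adjusted p = 0.0212), while Romo1, another partner of TIM23, had 0.56 and was 0.05 and not called there.

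The remaining roles were called in part. Inner membrane quality control was higher in 6 of 8 genes (median 0.49), intermembrane space substrates in 7 of 11 (0.48), MICOS, the complex that shapes the cristae, in 4 of 8 (0.39), outer membrane partners in 4 of 8 (0.30), presequence processing and turnover in 3 of 8 (0.36), inner membrane insertion in 1 of 4 (0.29) and cytosolic chaperones in 2 of 9 (0.28). None was called lower in that fit (edgeR), where 18.4% of protein-coding genes and 10.6% of all features were called higher. With length and GC corrected, inner membrane quality control was higher in 0 of 8, intermembrane space substrates in 1 of 11, MICOS in 3 of 8, outer membrane partners in 0 of 8, presequence processing and turnover in 1 of 8, inner membrane insertion in 0 of 4 and cytosolic chaperones in 0 of 9. In that fit 2.87% of protein-coding genes and 2.67% of all features were higher, and 5.48% and 5.76% lower. Minos1 of MICOS (-0.42, edgeR adjusted p = 0.0283) and the cytosolic chaperone Hsp90ab1 (-0.46, edgeR adjusted p = 0.0313) were called lower in it. Immt, the core of MICOS, averaged 799 ± 17.8 CPM in AAV9-LMNA and 567 ± 25.0 CPM in untreated libraries (0.49 on the log2 scale, edgeR adjusted p = 0.00381), and was 0.49 and called with length and GC corrected (edgeR adjusted p = 0.0099). Lonp1, the main protease of the matrix, had 0.68 and was 0.48 and called with that correction (edgeR adjusted p = 0.0278). Of 4 stress genes only Pink1 was called (0.33, edgeR adjusted p = 0.0388), a call lost without any library except untreated 6. Atf4, Atf5 and Ddit3, transcription factors of the stress response, had 0.34, 0.32 and 0.49 and were not called.

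Other nuclear genes of mitochondria were set beside the import genes. Of 45 tested genes named Nduf, mostly complex I subunits, 34 were called higher, with a median log2 fold change of 0.51, and of 74 mitochondrial ribosomal protein genes (Mrpl and Mrps) 57 were, with a median of 0.50. The import genes, at 17 of 34 and a median of 0.41, lay below both and above the 18.4% and 0.21 of all protein-coding genes. Of all features 10.6% were called higher. With Ensembl features alone the counts called higher were 6 of 34 import, 15 of 45 Nduf and 22 of 74 ribosomal protein genes. The shares in that fit were 4.49% of protein-coding genes and 4.33% of all features. After the length and GC correction the counts were 2 of 34, 2 of 45 and 3 of 74, beside shares of 2.87% and 2.67%. After that correction the medians were 0.13 for import genes, 0.12 for Nduf genes and 0.19 for the ribosomal protein genes. The difference between these gene groups was not tested.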

How the data were processed

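The authors deposited raw read counts per feature for 8 libraries, with no normalization, over 53465 Ensembl genes and 87774 NONCODE version 5 genes, counted without regard to strand per the deposited tables. Tools named in the submitters' processing notes, without versions or roles, are HTSeq, TopHat2, limma and edgeR, with builds GRCm38 and mm10. RNA came from a miRNeasy kit and libraries from a TruSeq kit, per the labels' protocols. The 5 summary lines of each table entered neither library sizes nor tests.

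Names, coordinates and exon lengths came from GENCODE M21 (GRCm38), which matched 53360 Ensembl identifiers. NONCODE overlaps were not checked. Counts were filtered with filterByExpr, scaled with TMM over all features and tested with edgeR 4.0.16 (robust quasi-likelihood) in R 4.3.3, with Benjamini-Hochberg adjustment over 26717 features at 0.05. DESeq2 1.42.0, limma-voom 3.58.1, RLE scaling, other filters, Ensembl features alone, those features with a loess correction for length and GC content (span 0.5), 1 surrogate variable (sva 3.50.0) and libraries left out were alternatives. Scripts were tested on simulated data. Matches to other genes were sought at 95% identity over 100 bases or more. Promoter windows came from RefSeq.

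The members and lists were chosen with earlier results of these data known. Every import gene is named. Values per library are given for up to 3 called genes a role by smallest p, or the gene with most CPM where none was called, and for the 3 steepest called genes of the second list; Pam16 and other genes given in more detail were chosen after their values were seen.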

Additional observations from a re-analysis of the deposited data

Results flagged for a closer look

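Among the 5 AAV9-LMNA libraries, 35 genes were checked for a library far from the others (Dixon's ratio above 0.71 for 5 libraries), and 3 import genes had one, where chance flags about 1 in 20 groups. Pmpca was 134 CPM in AAV9-LMNA 3, with the other 4 libraries between 122 and 125 CPM. Tomm40 was 86.9 CPM in AAV9-LMNA 5, with the other libraries between 67.5 and 72.9 CPM, and its call was lost without that library. Timm17a was 89 CPM in AAV9-LMNA 1, below the next library at 92.4 CPM. All of these values lay above all untreated values of the same gene.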

How the results depend on the processing

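No paired analysis was possible because the groups share no replicate numbers (1 to 5 and 6 to 8). The fit without untreated replicates 6 and 8 keeps only untreated 7 in its group, so its counts cannot show robustness. DESeq2, limma-voom, RLE scaling and the fit with no filter reversed no import gene and kept all 17 calls. A minimum of 1 CPM in 3 libraries kept 15 and 1 surrogate variable 10. With that variable 4330 features were called and 2182 were lower. Ensembl features alone gave 1967 called (660 higher, 1307 lower), import genes 6 higher and 1 lower with a median of 0.22, and 13 genes of the second list higher. The length and GC correction gave 1286 (407 higher, 879 lower), import genes 2 higher and 1 lower with a median of 0.13, and 7 higher and 2 lower in the second list. Without untreated replicates 6 and 8 there were 2143 (1139 higher, 1004 lower), 9 import genes higher, and 19 higher and 2 lower in the second list. Over the fits without 1 library, called features ran from 4216 (without AAV9-LMNA 2) to 10033 (without untreated 7), 1528 to 4773 higher and 2207 to 5260 lower, import genes higher from 9 to 20 and lower from 0 to 1, and Dnajc19 from -0.184 to 0.047.

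The log2 fold changes that turned sign under the length and GC correction were Tomm22 (-0.159), Timm29 (-0.142), Timm23 (-0.26), Gfer (-0.125), Tomm20 (-0.148), Tomm34 (-0.137) and Timm10b (-0.063). With Ensembl features alone they were Timm23 (-0.017), Tomm20 (-0.096), Tomm34 (-0.0027) and Grpel2 (-3.4e-05). Timm9 was 0.061 with 1 surrogate variable and 0.405 without untreated replicates 6 and 8. None of these genes was called in the fit of all features, and the cause was not tested. Depth limits the genes with few reads, Tomm20l, Timm8a1, Timm10b and Pam16.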
